A study of Mus musculus with 12 samples.

Results

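Colony-stimulating factors and macrophage growth signals are secreted proteins by which tumour and other cells recruit, feed and activate myeloid cells. The set comprised 7 named genes, Csf1, Il34, Csf2, Csf3, Il1a, Il33 and Lif, among 55573 genes in the files. They were taken by name and not by their values. All 7 passed the filter on low counts and were among the 14226 genes tested.

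CSF1 and IL-34 both bind CSF1R, the receptor on which macrophages depend for survival and growth. GM-CSF, encoded by Csf2, drives the growth and activation of macrophages and granulocytes, and G-CSF, encoded by Csf3, that of neutrophils. IL-1 alpha and IL-33 are alarmins, stored in cells and released on damage. LIF is a cytokine of the IL-6 family.

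The libraries were polyadenylated RNA of PB3, a mouse breast cancer line labelled as lacking Er, Pr and Her2. The lines ERI-R (selected with eribulin, which the treatment label spells Erubilin), PAC-R (paclitaxel) and VIN-R (vinorelbine) were derived from PB3 at 300, 500 and 800 nM of the drug, and Control was the untreated parental line. All 3 drugs bind tubulin. Each of the 4 groups had 3 libraries. The labels call the derivatives resistant clones and do not say how many clones a line holds, which concentration a library received last, or whether the drug was present at harvest. Replicates carry numbers only. Whether they came from separate cultures is not stated, and the p-values below measure the spread between these samples, which may be technical.

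The libraries held between 11141000 and 13454400 expected counts each. All levels below are in CPM, the count of a gene scaled to a common library total and by the trimmed mean of M-values, unless TPM, the measure per transcript length, is named. A count of 3 corresponds to between 0.217 and 0.315 CPM per library. The 7 epithelial markers examined summed to between 1075 and 5011 CPM in every library, and the simple-epithelium keratin gene Krt8 alone was between 176 and 2446 CPM. The epithelial markers differed between the lines. In ERI-R against Control edgeR called 4 of the 7 higher (Epcam, Cdh1, Krt14 and Krt5, named after their values were seen) and 0 lower, at a median log2 fold change of 4.48. ERI-R 3 stood apart in its ribosomal protein genes, which took 16.5% of its counts, against 3.73% to 8.85% in the other 11 libraries.

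A second difference between libraries bears directly on macrophage growth signals, because 8 of the 12 libraries held RNA of macrophage marker genes. Lyz2, the lysozyme of macrophages, was between 182 and 1399 CPM in those 8 libraries and at 0 in ERI-R 3, PAC-R 3, VIN-R 3 and Control 1. The 20 macrophage markers examined include Lyz2, whose level above 100 CPM defines the 8 libraries. The 20 summed to between 912 and 6532 CPM in the 8 libraries, and none of them was at 0 there. In the other 4 libraries they summed to between 23.3 and 168 CPM with 12 to 14 of the 20 at 0, and most of the sum in ERI-R 3 was Cd14 at 163 CPM. Markers of granulocytes summed to between 20.7 and 329 CPM in the 8 libraries, against 4.77 to 9.41 CPM in the 4, and 4 of 9 were higher in the 8 than in the 4 without overlap, as were 13.2% of all genes tested. Fibroblast markers summed to between 34.2 and 213 CPM in the 8 libraries, against 18.7 to 46.7 CPM in the 4, with 3 of 8 higher without overlap. Endothelial markers summed to between 2.84 and 22.03 CPM in the 8 libraries, against 0.315 to 3.25 CPM in the 4, with 3 of 6 higher without overlap. Mast cell markers reached at most 0.105 CPM and lymphocyte markers at most 3.47 CPM in any library, and the T-cell gene Cd3e was at 0 in all 12. In such bulk RNA fewer cells of a type and less RNA per cell cannot be told apart.

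Each group thus had 1 library without macrophage RNA, and the values of each gene below are given for both kinds of library.

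The promoters of 4 genes are shown first. Il1a and its neighbour Il1b are shown because their RNA moved together across libraries, and Csf1 and Csf2 because both were lower in ERI-R. Each window runs from 250 bases before to 50 after the RefSeq start site on GRCm38.p6. Il1a lies at chr2:129309923-129310222, Il1b at chr2:129371090-129371389, Csf1 at chr3:107760420-107760719 and Csf2 at chr11:54249850-54250149, all on the minus strand. Capitals mark matches, on either strand, of the TATA box letters TATAAA, the AP-1 letters TGANTCA, the PU.1 letters GAGGAA and the NF-kB consensus.
Il1a: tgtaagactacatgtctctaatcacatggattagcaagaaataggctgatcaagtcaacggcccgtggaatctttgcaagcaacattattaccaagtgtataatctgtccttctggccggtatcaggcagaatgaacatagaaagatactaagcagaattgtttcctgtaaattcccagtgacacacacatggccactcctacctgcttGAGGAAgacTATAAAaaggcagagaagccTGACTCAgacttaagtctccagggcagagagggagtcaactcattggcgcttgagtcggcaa
Il1b: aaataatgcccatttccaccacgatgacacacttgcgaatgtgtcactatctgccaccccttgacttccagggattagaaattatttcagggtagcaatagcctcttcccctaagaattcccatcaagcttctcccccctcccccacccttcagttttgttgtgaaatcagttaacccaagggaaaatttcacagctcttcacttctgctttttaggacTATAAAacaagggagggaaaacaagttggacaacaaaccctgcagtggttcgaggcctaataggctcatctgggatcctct
Csf1: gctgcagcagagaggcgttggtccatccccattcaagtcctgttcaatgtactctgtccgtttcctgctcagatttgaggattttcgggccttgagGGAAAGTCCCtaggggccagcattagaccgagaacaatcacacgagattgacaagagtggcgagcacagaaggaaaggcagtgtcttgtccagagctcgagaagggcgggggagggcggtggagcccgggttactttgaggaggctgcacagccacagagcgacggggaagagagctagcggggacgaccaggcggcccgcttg
Csf2: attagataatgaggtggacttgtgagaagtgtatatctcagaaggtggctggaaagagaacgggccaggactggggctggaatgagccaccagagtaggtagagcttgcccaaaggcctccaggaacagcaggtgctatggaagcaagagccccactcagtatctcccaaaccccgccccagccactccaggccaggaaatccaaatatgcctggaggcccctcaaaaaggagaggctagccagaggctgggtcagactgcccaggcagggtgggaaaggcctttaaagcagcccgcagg

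The Il1a window held GAGGAA beginning 41 bases before the start site, TATAAA 32 bases before it and TGACTCA 12 bases before it. The Il1b window held TATAAA 31 bases before the start, and the Csf1 window an NF-kB match, GGAAAGTCCC, 154 bases before the start. None of these letters was found in the Csf2 window. On the minus strand GENCODE starts Csf2 at chr11:54249667, and the whole window, from 54249850 up, lies upstream of that start. The bases next to the GENCODE start of Csf2 were not searched. Of 32851 windows of the same length, 13.6% held TATAAA, 7.81% TGANTCA, 28.3% GAGGAA and 8.46% an NF-kB match. These matches describe letters only. RefSeq windows were matched for 5 of the 7 genes.

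**Figure D1:**
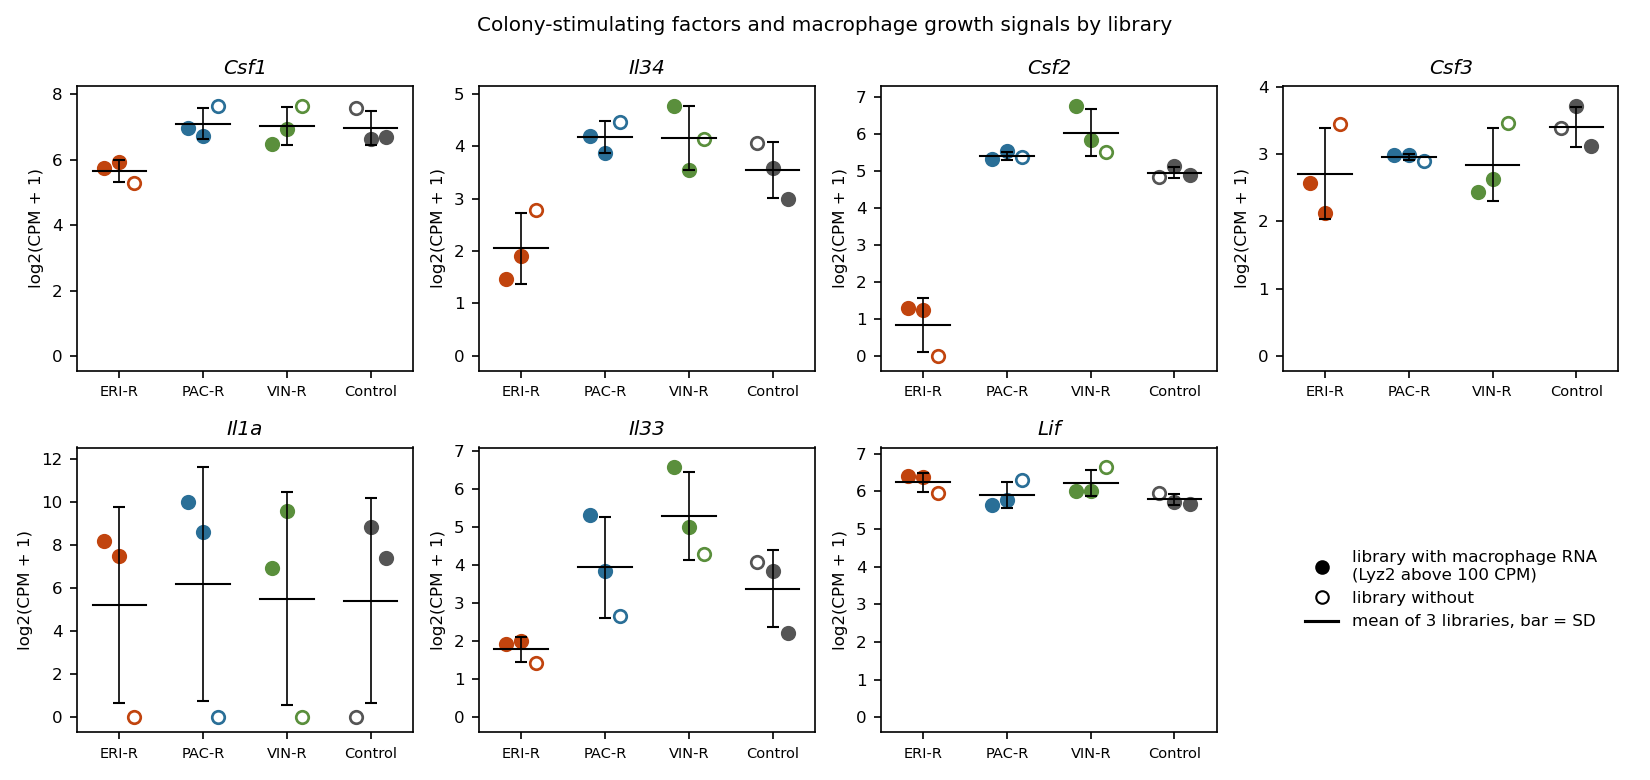
Level of each of the 7 genes in each library, as log2(CPM + 1), for ERI-R, PAC-R, VIN-R and Control. Filled points are libraries with macrophage RNA, open points those without, and bars are the mean and SD of 3 libraries. Csf2 sits far lower in ERI-R than in the other 3 groups, and Il1a is at 0 in each open point.

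The receptor ligands CSF1 and IL-34 were both lower in ERI-R than in the parental line. Csf1 lies at chr3:107741048-107760469 on the minus strand (GRCm38, GENCODE M21). It was at 52.6, 60.02 and 37.9 CPM in ERI-R 1 to 3, 124, 105 and 199 in the PAC-R libraries, 89.5, 123 and 199.6 in VIN-R and 190.3, 99.5 and 102 in Control. All 3 ERI-R libraries lay below all 9 others. In PAC-R, VIN-R and Control the highest value was that of the library without macrophage RNA, and in ERI-R that library was the lowest. Csf1 fell by 1.38 ± 0.41 (SE) on the log2 scale in ERI-R against Control, with an adjusted p of 0.0367 in edgeR's quasi-likelihood test with Benjamini-Hochberg adjustment over all genes.

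Among the 8 libraries with macrophage RNA alone, Csf1 fell by 0.74 ± 0.22 in ERI-R against Control (adjusted p = 0.0453 in the edgeR fit). A term for macrophage RNA in the fit of all 12 libraries gave a fall of 1.25 ± 0.32 (adjusted p = 0.0127). The call over 12 libraries did not hold when Control 1, Control 3, any one of the ERI-R libraries or PAC-R 1 was left out. The log2 fold changes of the 12 fits that left out 1 library each were between -1.55 and -0.91, and the smallest fall was without Control 1. The call was also lost with total counts as the only scaling, with no filter, with a block for the replicate number and with only the 2 groups in the fit.

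Il34 lies at chr8:110741829-110805924 on the minus strand. It was at 1.75, 2.74 and 5.88 CPM in ERI-R, 17.3, 13.6 and 21.1 in the PAC-R libraries, 26.2, 10.7 and 16.6 in VIN-R and 15.6, 10.97 and 6.99 in Control. The highest ERI-R library, the one without macrophage RNA, stayed below the lowest Control library. Il34 fell by 1.70 ± 0.51 in ERI-R against Control (edgeR adjusted p = 0.0404) and by 1.89 ± 0.51 among the libraries with macrophage RNA (adjusted p = 0.0302). The call over 12 libraries was lost without Control 1 or 2, ERI-R 1 or 2, PAC-R 1 or 2, or VIN-R 3, with log2 fold changes between -2.17 and -1.32 over all 12 such fits, and also with only ERI-R and Control in the fit (adjusted p = 0.128).

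Csf2, the gene of GM-CSF, had the largest fitted difference of the set between ERI-R and Control. It lies at chr11:54247271-54249667 on the minus strand. Its level was 1.44, 1.37 and 0 CPM in ERI-R, 39.2, 45.6 and 40.98 in the PAC-R libraries, 108, 56.4 and 45.3 in VIN-R and 27.8, 34.1 and 28.9 in Control. ERI-R averaged 0.939 ± 0.814 CPM and Control 30.3 ± 3.36 CPM (SD, n = 3 each). Every ERI-R library lay below every other library by a wide margin, with macrophage RNA or without it.

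Csf2 fell by 4.96 ± 0.83 on the log2 scale in ERI-R against Control (edgeR adjusted p = 0.00229). It fell by 4.38 ± 0.40 among the 8 libraries with macrophage RNA (adjusted p = 0.000437) and by 5.05 ± 0.61 with the macrophage term (adjusted p = 0.00021). It passed the test in all 12 fits that left out 1 library, at log2 fold changes between -5.35 and -4.27, of which -4.27 was without ERI-R 3. Il3, the hematopoietic cytokine gene 15636 bases away, was at 0 in all 12 libraries.

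Csf3, the gene of G-CSF, was low in every group. It lies at chr11:98701263-98703629 on the plus strand. Its level was 4.94, 3.35 and 9.87 CPM in ERI-R, 6.895, 6.903 and 6.49 in the PAC-R libraries, 4.43, 5.203 and 10.03 in VIN-R and 9.46, 12.1 and 7.68 in Control. ERI-R and Control overlapped, since the ERI-R library without macrophage RNA lay within the Control range. The log2 fold change of Csf3 in ERI-R against Control was -0.69 ± 0.45 (edgeR adjusted p = 0.341), and -1.15 ± 0.35 among the libraries with macrophage RNA (adjusted p = 0.0478).

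Of the alarmins, Il1a was detected only in the libraries with macrophage RNA. It lies at chr2:129299610-129309972 on the minus strand. It was at 297, 183 and 0 CPM in ERI-R, 1025, 389.5 and 0 in the PAC-R libraries, 124, 774 and 0 in VIN-R and 0, 469 and 171 in Control. In each group the library at 0 was the one without Lyz2.

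Over the 8 libraries with macrophage RNA Il1a averaged 429 ± 320 CPM (SD), and in the 4 without it no count was recorded. With 3 counts over those 4 libraries as the floor, the level was at least 7197-fold higher in the libraries with macrophage RNA. Between those 8 libraries Lyz2 ranged over 7.70-fold and Il1a over 8.30-fold, while the CPM of Il1a for each CPM of Lyz2 stayed between 0.558 and 0.841. Il1b, the gene of the secreted inflammatory IL-1 54598 bases away, kept to between 0.486 and 0.846 CPM for each CPM of Lyz2 and was at 0 in the same 4 libraries. Csf1r, the receptor of CSF1 and IL-34, kept to between 0.142 and 0.203.

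Il1a was the only one of the 7 genes whose libraries with and without macrophage RNA did not overlap. Of all genes tested, 21.4% did not overlap between the same libraries. The fitted log2 fold change of Il1a in ERI-R against Control was -0.41, with an SE of 2.85 that shrank to 0.88 once the fit held a term for macrophage RNA. The adjusted p was 0.949 without the term and 0.755 with it, in the edgeR fits.

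**Figure D2:**
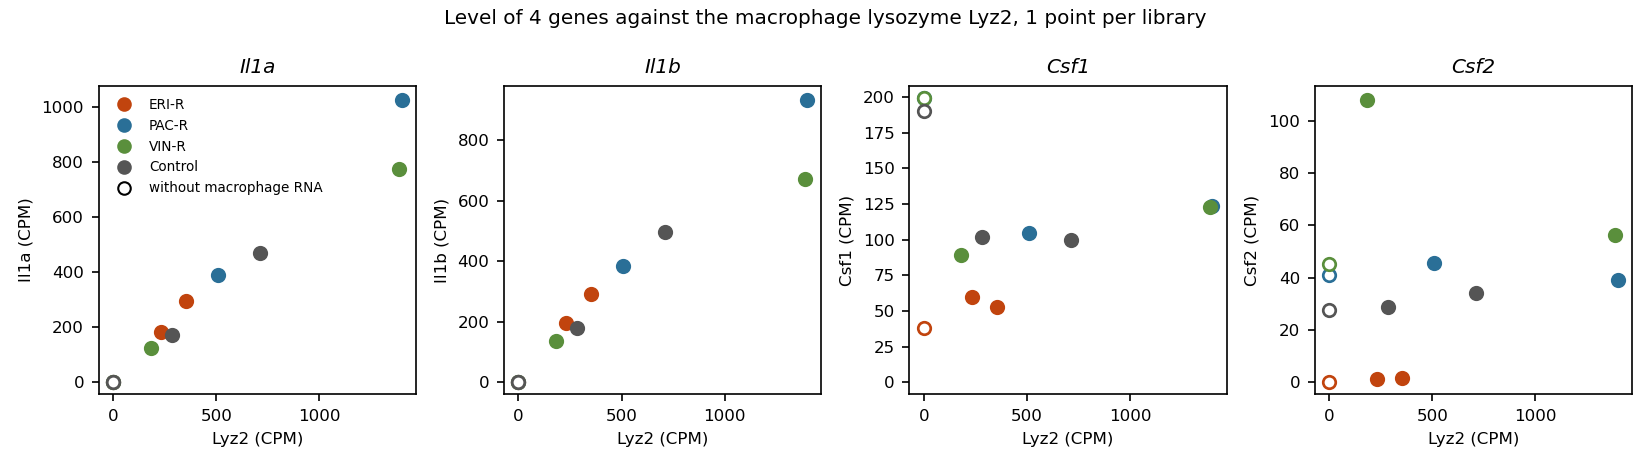
Level of Il1a, Il1b, Csf1 and Csf2 in CPM on the vertical axes against Lyz2 in CPM, with 1 point per library, coloured by group and open where Lyz2 was at 0. Il1a and Il1b lie at 0 in the 4 open points and climb with Lyz2, at 0.558 to 0.841 CPM of Il1a for each CPM of Lyz2, while Csf1 and Csf2 separate ERI-R from the rest.

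Il33, which also acts as a nuclear protein, lies at chr19:29925114-29960718 on the plus strand. It was at 2.81, 3.05 and 1.68 CPM in ERI-R, 39.3, 13.4 and 5.37 in the PAC-R libraries, 94.4, 31.1 and 18.8 in VIN-R and 15.9, 13.6 and 3.67 in Control. In CPM the ERI-R libraries lay below all others, and the VIN-R libraries above all Control libraries. In TPM ERI-R 2, at 2.78, lay above Control 3, at 2.53. Within ERI-R, PAC-R and VIN-R the lowest library was the one without macrophage RNA, and within Control that library was the highest.

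The log2 fold change of Il33 in ERI-R against Control was -2.13 ± 0.84 and missed the threshold (edgeR adjusted p = 0.109). It passed with DESeq2 (adjusted p = 0.0446), with the replicate block (adjusted p = 0.0176) and with the macrophage term, at -2.36 ± 0.81 (adjusted p = 0.0484), and not among the 8 libraries with macrophage RNA, at -1.44 ± 0.85 (adjusted p = 0.302). Markers of fibroblasts, a usual source of IL-33, summed to 213, 112 and 46.7 CPM in ERI-R and to 29.7, 89.6 and 64.2 CPM in Control, with overlap, and edgeR called 0 of the 6 tested. The median log2 fold change of the 6 was -0.032. Both results are of the fit on group means. With the macrophage term 1 of the 6 was called higher, at a median of -0.30. In the 8 libraries with macrophage RNA 1 was called higher, at a median of 0.41. Single markers differed in direction. Postn was at 98.998, 61.996 and 22.9 CPM in ERI-R and at 0.217, 7.87 and 2.096 CPM in Control. Col3a1 went the other way, with overlap, at 2.51, 2.36 and 0.105 CPM in ERI-R and at 7.29, 3.099 and 1.14 CPM in Control. The part of the fibroblast markers in the Il33 result was not tested.

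Lif ranged between 48.4 and 98.2 CPM over the 12 libraries. It lies at chr11:4257557-4272514 on the plus strand. It was at 83.9, 81.6 and 60.7 CPM in ERI-R, 48.4, 53.9 and 77.8 in the PAC-R libraries, 63.6, 63.7 and 98.2 in VIN-R and 60.9, 51.9 and 49.95 in Control. Outside ERI-R the library without macrophage RNA was the highest of its group, and in ERI-R it was the lowest. The log2 fold change in ERI-R against Control was 0.48 ± 0.28 (edgeR adjusted p = 0.288). Among the libraries with macrophage RNA Lif rose by 0.80 ± 0.20 (adjusted p = 0.0238), also when set against PAC-R (0.80, adjusted p = 0.0234).

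Read as a set, 3 of the 7 genes were called lower and 0 higher in ERI-R against Control. Of all genes tested, 9.69% were called lower and 9.51% higher in that comparison. In CPM the libraries of 4 of the 7 (Csf1, Il34, Csf2 and Il33) were lower in ERI-R than in Control without overlap, as were those of 19.3% of all genes. In TPM Il33 overlapped, with ERI-R 2 at 2.78 and Control 3 at 2.53. In the 8 libraries with macrophage RNA, 4 of the 7 (Csf1, Il34, Csf2 and Csf3) were called lower and 1 (Lif) higher, against 10.7% and 12% of the 14388 genes tested there. Without ERI-R 3, the library with the highest share of ribosomal protein RNA, 2 of the 7 (Csf2 and Il34) were called lower, against 8.64% of all genes. Epithelial markers also differed in these comparisons, and not all in 1 direction. In the 8 libraries with macrophage RNA edgeR called 4 of the 7 epithelial markers higher in ERI-R and 1 lower. Epcam, an epithelial adhesion gene, was at 233.8, 243.1 and 227.6 CPM in ERI-R and at 10.2, 8.12 and 4.63 CPM in Control, and Cdh1, the gene of E-cadherin, at 319.7, 297 and 94.1 CPM in ERI-R and at 12.9, 11.7 and 7.07 CPM in Control. Krt18 was at 123, 186 and 877 CPM in ERI-R and at 1126, 843 and 741 CPM in Control, with overlap. Krt8 was at 176, 336 and 916 CPM in ERI-R and at 1089, 862 and 524 CPM in Control, also with overlap. The part of the epithelial markers in the falls of Csf1, Csf2 and Il34 was not tested.

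ERI-R also differed from the other selected lines, in comparisons that use the same ERI-R libraries. Csf1, Csf2, Il34 and Il33 were called lower in ERI-R against PAC-R, where 9.55% of all genes were, and the same 4 in ERI-R against VIN-R, where 9.74% were. Csf2 fell by 5.43 ± 0.85 on the log2 scale against PAC-R (edgeR adjusted p = 0.00173) and by 6.17 ± 0.88 against VIN-R (adjusted p = 0.000932). Il34 fell by 2.33 ± 0.52 against PAC-R (adjusted p = 0.0101) and by 2.37 ± 0.52 against VIN-R (adjusted p = 0.00854).

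Il33 fell by 4.25 ± 0.91 in ERI-R against VIN-R (edgeR adjusted p = 0.00723). It fell by 2.93 ± 0.86 against PAC-R (adjusted p = 0.0362), a call lost without Control 2, PAC-R 1 or 2 or any one ERI-R library, and the fall was 1.90 without PAC-R 1. Csf1 fell by 1.51 ± 0.41 against PAC-R (adjusted p = 0.0253) and by 1.45 ± 0.41 against VIN-R (adjusted p = 0.0293). The Csf1 call against PAC-R was lost without any one ERI-R library or without PAC-R 1 or 3, and that against VIN-R without any one ERI-R library or without VIN-R 2 or 3. With only the 2 groups in the fit, Csf2 kept all its calls, and the calls of Csf1 and Il34 against PAC-R and VIN-R and of Il33 against PAC-R were lost, Il34 at adjusted p = 0.0508 against PAC-R and 0.0576 against VIN-R. Total counts as the only scaling also ended the Csf1 calls against PAC-R and VIN-R, and the replicate block that against VIN-R.

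Outside ERI-R no difference in these genes passed the test. None of the 7 was called in PAC-R or VIN-R against Control or in PAC-R against VIN-R, and of all genes tested edgeR called 0%. At an unadjusted p under 0.05 edgeR had 245 genes in PAC-R against Control, 381 in VIN-R against Control and 156 in PAC-R against VIN-R, while DESeq2 called 25, 36 and 3 genes. The only one of the 7 at an unadjusted p under 0.05 in edgeR was Il33 in VIN-R against Control, at a log2 fold change of 2.12 (95% interval 0.30 to 3.94, unadjusted p = 0.0263, adjusted p = 1 in edgeR). All 3 VIN-R libraries were higher than all Control libraries. DESeq2 had 2 of the 7 at an unadjusted p under 0.05 in that comparison, Il33 (0.00687) and Csf2 (0.0289), and called neither.

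Csf2 was also above all Control libraries in each PAC-R and VIN-R library. Its log2 fold change was 0.47 (95% interval -1.06 to 2.00) in PAC-R against Control and 1.21 (-0.34 to 2.75) in VIN-R against Control, with an edgeR adjusted p of 1 in both. Csf1 differed by 0.13 (-0.75 to 1.01) in PAC-R against Control and by 0.07 (-0.81 to 0.95) in VIN-R against Control. The Lif interval was -0.47 to 0.77 in PAC-R against Control and -0.15 to 1.09 in VIN-R against Control. In CPM all 3 VIN-R values of Lif lay above the Control values. In TPM they overlapped, at 23.67 to 44 in VIN-R and 23.11 to 30.32 in Control. Libraries of VIN-R and Control did not overlap in CPM for 3 of the 7 genes (Csf2, Il33 and Lif, all higher), against 3.47% of all genes higher without overlap. In PAC-R 1 gene, Csf2, lay higher and 1, Csf3, lower than Control without overlap, against 2.91% and 4.67% of all genes.

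**Figure D3:**
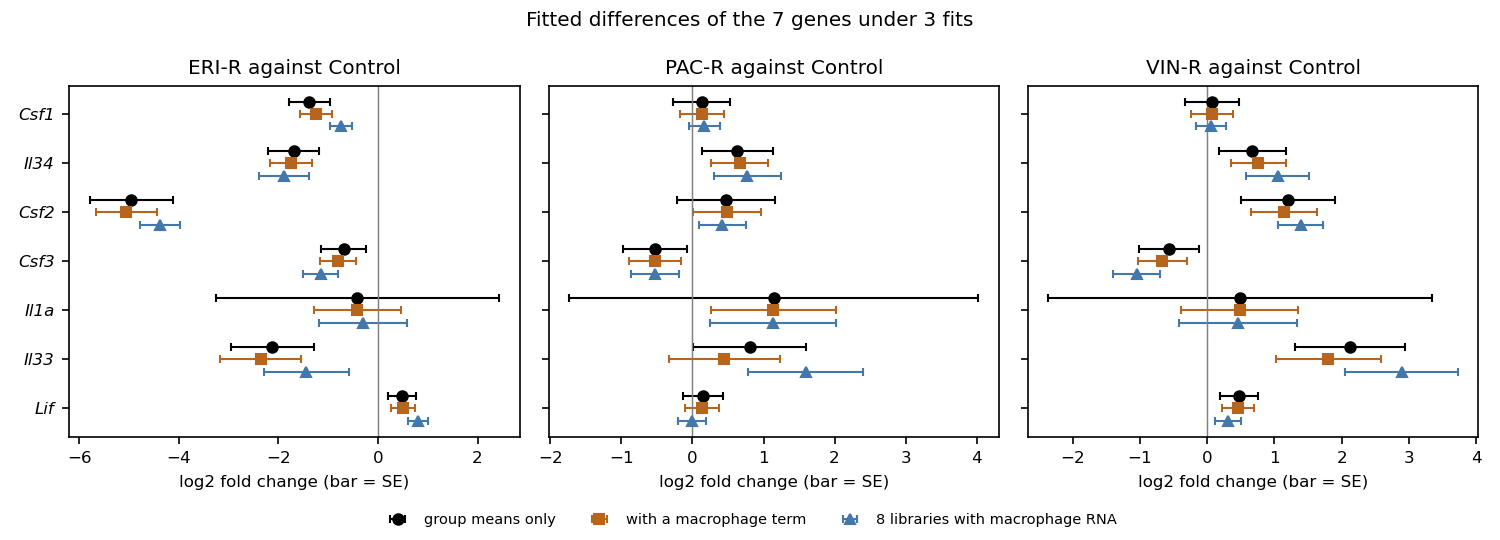
Fitted log2 fold change with its SE for the 7 genes in ERI-R, PAC-R and VIN-R against Control, from the fit on group means, the fit with a macrophage term and the fit on the 8 libraries with macrophage RNA. Csf2 lies between -5.05 and -4.38 in ERI-R under all 3 fits, and the SE of Il1a shrinks from 2.85 to 0.88 when the macrophage term enters.

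Per transcript length the order of the 7 genes differed between ERI-R and Control. Mean TPM in ERI-R was 168 for Il1a, 35.8 for Lif, 24.2 for Csf1, 6.37 for Csf3, 4.83 for Il34, 2.85 for Csf2 and 2.05 for Il33. Among neighbours in that order Csf1 stood above Csf3 without overlap of libraries, and the other neighbours overlapped. Mean TPM in Control was 184 for Il1a, 80.00 for Csf2, 60.1 for Csf1, 25.7 for Lif, 15.3 for Il34, 12.7 for Csf3 and 7.73 for Il33. There Csf1 stood above Lif and Lif above Il34 without overlap, and the other neighbours overlapped.

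Mean TPM in PAC-R was 381 for Il1a, 98.5 for Csf2, 60.7 for Csf1, 24.7 for Lif, 24.1 for Il34, 12.1 for Il33 and 7.89 for Csf3. Csf2 stood above Csf1 and Csf1 above Lif there without overlap of libraries, and the other neighbours overlapped. Mean TPM in VIN-R was 239.9 for Il1a, 161 for Csf2, 61.4 for Csf1, 31.6 for Lif, 28.2 for Il33, 23.8 for Il34 and 7.81 for Csf3, where Csf2 stood above Csf1 and Il34 above Csf3 without overlap. Il1a led each group by its mean while being at 0 in 1 library of each. Csf2 thus came next after Il1a in PAC-R, VIN-R and Control and last but one in ERI-R.

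The receptors were examined as a list of 11 chains, of which 10 were tested. In ERI-R against Control 1 was called higher, Lifr, and 1 lower, Il1rl1. Of all genes tested, 9.51% were called higher and 9.69% lower in that comparison, so the counts were near those shares. The median log2 fold change of the 10 was -0.24, against -0.0044 for all genes tested. No receptor was called in PAC-R or VIN-R against Control.

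Lifr, the LIF-binding chain, was at 162, 77.6 and 24.1 CPM in ERI-R, 3.45, 5.56 and 0.149 in the PAC-R libraries, 0.334, 1.37 and 0.148 in VIN-R and 0.289, 3.02 and 1.397 in Control. The 3 ERI-R libraries lay above all 9 others. Lifr rose by 5.81 ± 1.35 on the log2 scale in ERI-R against Control (edgeR adjusted p = 0.0115), a call lost without Control 3. Il6st, the signalling chain shared by the IL-6 family, was at 186, 109.6 and 38.9 CPM in ERI-R and at 143, 102 and 127 CPM in Control, with overlap.

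Il1rl1, the receptor of IL-33 known as ST2, was at 1.44, 1.29 and 0 CPM in ERI-R, 37.7, 37.9 and 32.99 in the PAC-R libraries, 65.5, 43.5 and 107 in VIN-R and 84.4, 51.8 and 34.5 in Control. It was near 0 in ERI-R and above 30 CPM in all other libraries. Il1rl1 fell by 5.91 ± 0.90 in ERI-R against Control (edgeR adjusted p = 0.00149) and passed in all 12 fits that left out 1 library. Mast cells, which carry ST2, were followed by markers that summed to at most 0.105 CPM in any library.

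The receptors of the colony-stimulating factors went with the macrophage RNA. Csf1r was between 36.9 and 209 CPM in the 8 libraries with macrophage RNA, against 0 to 0.746 CPM in the 4 without. Csf2rb, the shared beta chain of the GM-CSF receptor, was between 13.3 and 113 CPM in the 8, against 0 to 0.5901 CPM in the 4. Csf3r was between 4.85 and 55.6 CPM in the 8 and at 0 in each of the 4.

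Csf2rb2, a near copy of Csf2rb in the mouse that shares reads with it and is uncertain for that reason, and Il1rap, the co-receptor of IL-1 and IL-33, also separated the 8 libraries from the 4. That made 5 of 11 receptor chains higher in CPM without overlap, against 13.2% of all genes, although Il1rap overlapped in TPM. Csf1r, 1 of the 5, is also among the 20 macrophage markers. Il1r1, the signalling receptor of IL-1, overlapped too, and its 3 VIN-R libraries, at 27.8, 35.6 and 20.9 CPM, lay above all 9 others. Csf2ra, the GM-CSF-binding chain, overlapped, at 6.52 to 30.9 CPM in the 8 and 3.61 to 14.4 CPM in the 4. In those 4 libraries the ligand gene Csf1 was between 37.9 and 199.6 CPM, and Csf2 was between 27.8 and 45.3 CPM in PAC-R 3, VIN-R 3 and Control 1.

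**Figure D4:**
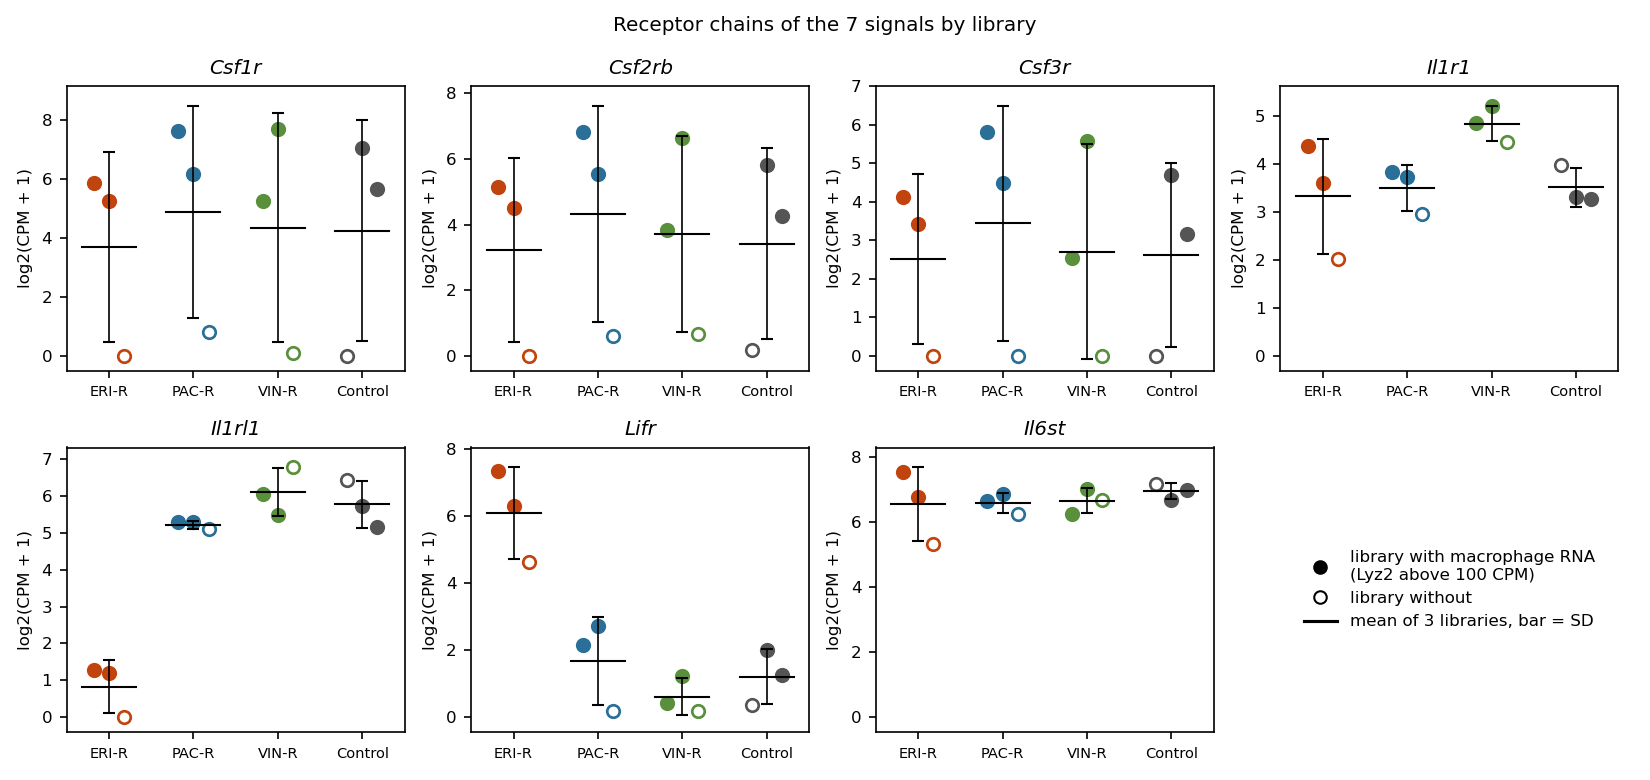
Level of 7 receptor chains in each library, as log2(CPM + 1), by group, with open points for the libraries without macrophage RNA and bars for the mean and SD of 3 libraries. Csf1r, Csf2rb and Csf3r are at or near 0 in the open points, Il1rl1 is near 0 in ERI-R, and Lifr is higher in ERI-R than in the other 3 groups.

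Related cytokines were examined as a list of 15 genes, of which 12 were tested. In ERI-R against Control 1 was called higher and 3 lower, with a median log2 fold change of -0.50, against 9.51% higher, 9.69% lower and a median of -0.0044 over all genes tested. Tslp, an epithelial alarmin that acts on dendritic cells, was at 3.57, 3.199 and 0.2099 CPM in ERI-R and at 91.8, 82.3 and 98.7 CPM in Control. It fell by 5.26 ± 0.72 (edgeR adjusted p = 0.000957). Clcf1, an IL-6 family cytokine, was at 10.8, 7.997 and 11.02 CPM in ERI-R and at 97.8, 83.1 and 66.3 CPM in Control, a fall of 3.05 ± 0.36 (adjusted p = 0.000512).

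Il11, also of the IL-6 family, fell by 2.95 (edgeR adjusted p = 0.00554) and is named to complete that count, after its values were seen. Ctf1, a further relative of LIF, was at 5.93, 8.23 and 19.1 CPM in ERI-R and at 0.794, 1.51 and 1.05 CPM in Control, a rise of 3.30 ± 0.59 (adjusted p = 0.00306). These 4 calls held in all 12 fits that left out 1 library. Of the 15 genes, 7 were higher without overlap in the libraries with macrophage RNA than in those without, among them Il1b, Il1rn, Osm and Il6, against 13.2% of all genes. None of the 15 was called in PAC-R or VIN-R against Control.

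Likeness to each of the 7 genes was measured as the mean absolute difference of log2 CPM, centred on each gene's mean over the 12 libraries, among 11022 candidate genes. The gene closest to Il1a was Il1b, at 0.063, followed by Slamf7 at 0.067 and the cathepsin gene Ctss at 0.16. The gene closest to Csf2 was Tslp, at 0.27, followed by Wincr1 at 0.34 and Klra4 at 0.35. Csf1 was closest to Mfn2 at 0.13, Lif to Kif18b at 0.14, Csf3 to Nicn1 at 0.25 and Il34 to Akr1b8 at 0.27. Il33 had no near match, with Upp1 the closest at 0.72. Over the 8 libraries with macrophage RNA, Tslp and Klra4 were again among the 3 closest to Csf2 and Slamf7 among those closest to Il1a. Il1b and Ctss were no longer among the 3 closest to Il1a there, which were Slamf7, Slfn2 and Pirb. For Csf1, Csf3 and Lif none of the 3 closest genes recurred.

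The genes next to the 7 in the genome were also read. Osm, 16531 bases from Lif and a cytokine of macrophages, was between 0.251 and 5.08 CPM in the 8 libraries with macrophage RNA and at 0 in the 4 without, unlike Lif. Mtss1l, 429 bases from Il34, had a log2 fold change of 0.93 in ERI-R against Control (edgeR adjusted p = 0.0636), while that of Il34 was -1.70. P4ha2, 115606 bases from Csf2, had one of -0.91 (adjusted p = 0.0868). Transcripts annotated across from Csf2, Il34 and Il1a were at most 0.479 CPM in any library.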

How the data were processed

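RNA of 12 PB3 libraries was read as paired ends after a Kapa mRNA HyperPrep preparation, per the labels' protocols. The submitters' processing notes name the build GRCm38 and, without a role for any, the tools RSEM 1.3.2, STAR 2.7.2b, cutadapt 2.4 and bcl2fastq 2.20.0.422. Which annotation and strand setting were used is not given in the sources used here. What the authors deposited is, per the file headers, the gene output of RSEM: expected counts estimate the fragments of each gene and are not normalized, and TPM is that count per effective length, scaled to a common total. Per the file headers, the effective length is the number of positions where a fragment can start. It differed between libraries for Il34 (591 to 1540), Il33 (1381 to 2358) and Csf1 (2865 to 3636), which affects their TPM. CPM is not corrected for it. Positions were taken from GENCODE M21.

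Expected counts were rounded (15.3% of values above 0 changed), filtered with filterByExpr and then scaled with TMM factors. All 12 libraries entered a single robust quasi-likelihood fit in edgeR 4.0.16 (R 4.3.3), parameterised by group, and 6 comparisons were adjusted over 14226 genes. A call is an adjusted p under 0.05. SE is the log2 fold change divided by the root of F. Libraries with Lyz2 above 100 CPM are those with macrophage RNA; that split is a description and was not tested. Alternatives included DESeq2 1.42.0, other scalings and filters, a macrophage term, the 8 libraries with macrophage RNA, a replicate block and leaving out each library. Floors are 3 counts and cover counting error only.

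The 7 genes, the lists of receptors, related cytokines, NF-kB, release and decay, JAK-STAT and cell type markers, and the tests were chosen with earlier results of these data known. From each list up to 2 called genes per direction with a mean of at least 1 CPM are named, and for each of the 7 genes the 3 closest of those above 5 CPM.

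The replicate numbers were checked as pairs by the correlation of deviations from group means. Against Control it ran from -0.86 to 0.74. There the library without macrophage RNA is replicate 1 in Control and replicate 3 in the other groups, so the check cannot show whether the numbers denote pairs. Between ERI-R and VIN-R 1 pair was at 0.083. The correlation was above 0.1 in every pair of ERI-R with PAC-R and of PAC-R with VIN-R, where replicate 3 is in each group the library without macrophage RNA. With the block, no call among the 7 genes changed in ERI-R against PAC-R or in PAC-R against VIN-R. The Csf1 calls in ERI-R against Control and against VIN-R were lost with it, and Il33 was called in ERI-R against Control.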

Additional observations from a re-analysis of the deposited data

How the results depend on the processing

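Over the 7 genes, 6 comparisons and all alternatives, 795 of the alternative values kept direction and side of the threshold, 42 were no longer past it, 6 became past it and 39 changed sign. The 42 can fall only on calls of the main fit, so the total overstates how stable those calls were. The main fit called 3 genes in ERI-R against Control, 4 against PAC-R, 4 against VIN-R and 0 in each other comparison. The causes of these changes were not tested. Fits that left out libraries also had fewer samples, and the 2 were not separated. Counts of called genes in all genes tested were, with only the 2 groups in the fit, 1744 in ERI-R against Control, 1254 in ERI-R against PAC-R and 1493 in ERI-R against VIN-R, and with the macrophage term 4445, 4176 and 4227. Leaving out 1 library gave 1866 to 2892, 1854 to 2922 and 2040 to 2903. PAC-R against Control gave 25 calls with DESeq2, 3 with the macrophage term and 0 to 2 with 1 library left out; VIN-R against Control gave 36, 3 and 0 to 6; PAC-R against VIN-R gave 3 with DESeq2. Total counts alone moved the median of all genes by 0.13 on the log2 scale in ERI-R against PAC-R and by 0.12 against VIN-R. With the replicate block, Csf1 in ERI-R against Control was at -1.35 (edgeR adjusted p = 0.0601) and Il33 at -1.90 (adjusted p = 0.0176), and Il1a changed sign to -5.85 in PAC-R and -6.50 in VIN-R against Control. Lif was at -0.0045 in PAC-R against Control in the 8 libraries with macrophage RNA and at -0.042 in ERI-R against VIN-R with no filter. Log2 fold changes with 1 library left out spanned 0 for Il1a in ERI-R against Control (-1.17 to 0.90), PAC-R against Control (-0.13 to 2.46), VIN-R against Control (-1.79 to 1.81), ERI-R against VIN-R (-1.68 to 1.37) and PAC-R against VIN-R (-0.62 to 2.93). They did so for Csf1 in PAC-R against Control (-0.19 to 0.51), VIN-R against Control (-0.30 to 0.45) and PAC-R against VIN-R (-0.27 to 0.43), for Il33 in PAC-R against Control (-0.24 to 1.25) and for Il34 in PAC-R against VIN-R (-0.30 to 0.34). They also did for Lif in PAC-R against Control (-0.088 to 0.28) and ERI-R against VIN-R (-0.12 to 0.27), and for Csf3 in ERI-R against PAC-R (-0.56 to 0.15), ERI-R against VIN-R (-0.53 to 0.31) and PAC-R against VIN-R (-0.17 to 0.49). At 0 to 1.44 CPM, Csf2 in ERI-R lay near the floor of 0.217 to 0.315 CPM, which limits the precision of its fold.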

Other observations

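Genes that sit up- or downstream of the 7 signals were read as lists in ERI-R, where edgeR called 9.51% of all genes higher and 9.69% lower than in Control. Of 12 NF-kB genes, the transcription factors and inhibitors that drive many cytokine promoters, edgeR called 0 higher and 0 lower in ERI-R against Control at a median log2 fold change of -0.19, and 4 of the 12 (Rel, Nfkbie, Tnfaip3 and Ikbke) were higher without overlap in the libraries with macrophage RNA than in those without, as were 13.2% of all genes. With the macrophage term in the fit 2 of the 12 were called lower. Of 11 JAK-STAT genes 1 was called higher and 1 lower, at a median of -0.63, and with the macrophage term 1 higher and 4 lower. The shares of 9.51% and 9.69% are of the fit without that term. The fit with the term called more genes in ERI-R against Control, so these shares do not apply to its counts. Cish, an inhibitor of STAT5 signalling, was at 6.23, 6.47 and 17.5 CPM in ERI-R and at 2.82, 3.099 and 3.14 CPM in Control, a rise of 1.74 ± 0.43 (edgeR adjusted p = 0.0167) that was lost without any one Control library. Socs2, a related inhibitor, was at 53.99, 36.8 and 60.6 CPM in ERI-R and at 145, 212 and 271 CPM in Control, a fall of 2.05 ± 0.39 (adjusted p = 0.00458).

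Of 8 genes of cytokine release and RNA decay, 0 were called higher and 3 lower in ERI-R against Control, at a median of -0.60. In the 8 libraries with macrophage RNA 1 was called higher and 2 lower, against 12% and 10.7% of all genes tested there. Zfp36l2, which promotes decay of AU-rich cytokine RNA, was at 101, 72.1 and 36.2 CPM in ERI-R and at 434, 427 and 497 CPM in Control, a fall of 2.69 ± 0.39 (edgeR adjusted p = 0.00121). Capn1, a calpain protease of the kind that cleaves the IL-1 alpha precursor, was at 25.8, 24.5 and 42.2 CPM in ERI-R and at 134, 72.8 and 72.6 CPM in Control, a fall of 1.59 ± 0.42 (adjusted p = 0.022) that was lost without Control 1, ERI-R 1 or ERI-R 2. The third was Capn2, at a log2 fold change of -1.02, named after its values were seen. None of the genes on these lists was called in PAC-R or VIN-R against Control.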
